A study of Mus musculus with 6 samples.

Results

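Immediate early genes are switched on within minutes of a stimulus, from factors already present in the cell and without new protein synthesis. The 10 followed here were chosen by name as well-known members of this class: *Fos*, *Fosb*, *Jun*, *Junb*, *Atf3*, *Egr1*, *Nr4a1*, *Dusp1*, *Zfp36* and *Ier2*. They are 10 of the 56262 genes in the count table, and all 10 were among the 22071 genes with enough counts to be tested. The lowest count of any of them in any sample was 194. They were measured by RNA-seq of leg muscle from fetal mice at E18.5d, with 3 wild-type (WT) samples and 3 samples of the *SYISL* knockout (KO). *SYISL* is a long noncoding RNA, and the comparison of KO with WT asks how its loss changes fetal muscle.

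According to the methods, KO females were mated with KO males, and the knockout line was taken from earlier work of the same group. Which mating gave these samples is not stated, and littermates of heterozygous parents were used elsewhere in the study. If the KO samples came from KO females, every KO fetus developed in a KO mother. The genotype of the mother and that of the fetus then cannot be told apart. No drug, diet or other treatment is given for either group. How many fetuses or litters went into a sample, and the sex of the fetuses, are not stated in the sources used here. The p-values therefore measure only the spread between these samples. Each sample held between 82054811 and 102233181 counts. The gene annotation used here has 0 genes under the name *SYISL*, so its own level was not examined. Its host gene *Synpo2* was at 137, 131 and 139 CPM (counts scaled to library size) in the WT samples and at 193, 220 and 229 CPM in the KO samples, which does not check the deletion.

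The tissue label was compared with marker genes of 12 cell types. Skeletal muscle fibre genes such as *Acta1* and *Ttn* were abundant in every sample, and the 6 listed summed to between 10722 and 11764 CPM in WT and between 23374 and 30008 CPM in KO. The samples also held skin and blood. The 10 keratinocyte genes, led by *Krt1* and *Krt10*, summed to between 15388 and 22949 CPM in WT and between 675 and 755 CPM in KO, and all 10 were lower in KO. The 4 erythroid genes summed to between 3215 and 3978 CPM in WT and between 471 and 544 CPM in KO, and all 4 were lower. None of these keratinocyte or erythroid genes was at 0 in a group. In bulk tissue, fewer cells of a type and less RNA per cell cannot be told apart, and this holds for every gene below.

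Most of these genes encode transcription factors. FOS and JUN proteins pair to form AP-1, and ATF3 pairs with members of the same class. EGR1 is a zinc finger factor and NR4A1 an orphan nuclear receptor. *Dusp1* and *Zfp36* act as brakes, since DUSP1 is a phosphatase that switches off MAP kinases and ZFP36 binds and destabilises AU-rich messenger RNAs. In skeletal muscle the set is known to respond to contraction, stretch and injury, and also to the handling of tissue after collection.

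The genotypes differed in most of these genes, and the differences went in both directions. Differentially expressed genes (DEGs) are genes that changed by over 1.5 times in edgeR's quasi-likelihood test, with a Benjamini-Hochberg adjusted p under 0.05. *Fosb*, *Nr4a1* and *Atf3* were DEGs higher in KO and *Junb* was a DEG lower in KO, so 4 of the 10 were called. Of all genes tested, 16.7% were DEGs, 8.31% higher and 8.39% lower. At the adjusted p alone, 6 of the 10 rose (*Fos*, *Fosb*, *Jun*, *Egr1*, *Atf3*, *Nr4a1*) and 3 fell (*Junb*, *Ier2*, *Zfp36*). *Dusp1* did not pass. That threshold was passed by 45% of all genes tested, 21.9% upward and 23.1% downward. The WT and KO values did not overlap for 8 of the 10, all but *Fos* and *Dusp1*, against 55.9% of all genes. The median log2 fold change of the 10 was 0.32, beside -0.0041 for all genes tested.

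**Figure D1:**
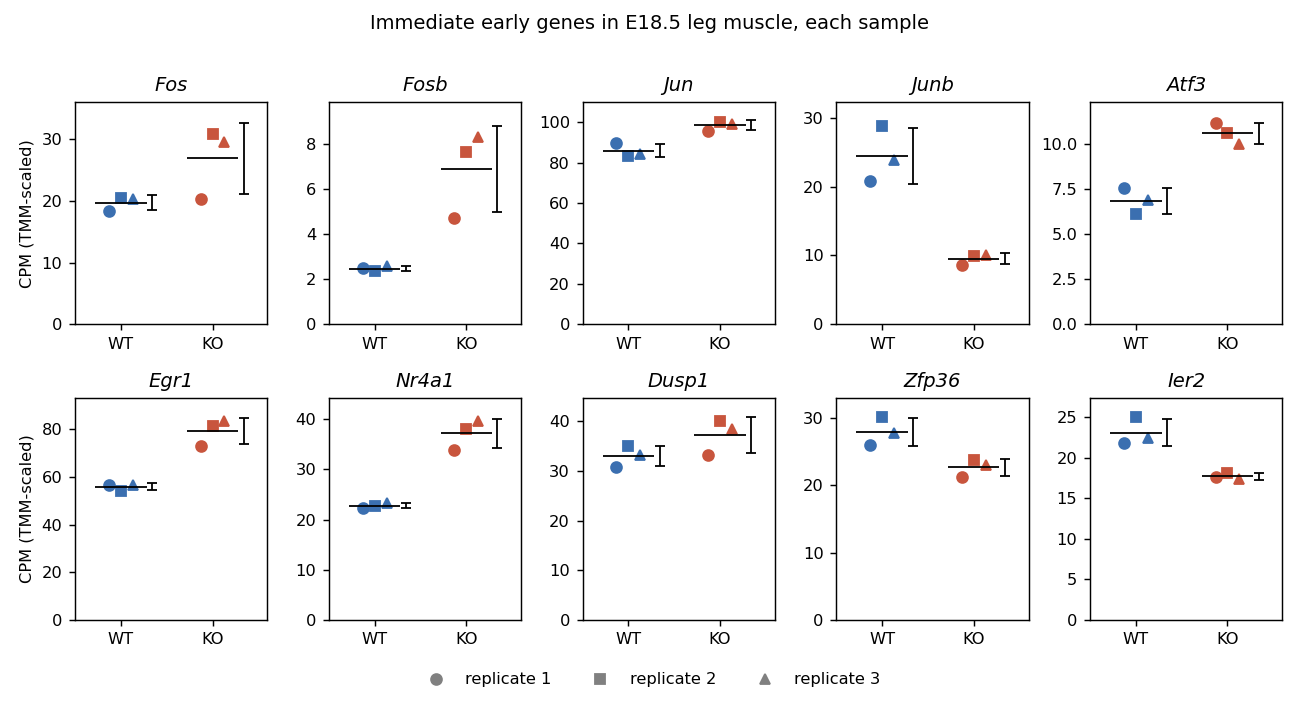
Expression of the 10 immediate early genes in each sample, in CPM with TMM-scaled library sizes and a vertical axis from 0 that differs between genes. Points are samples, with a shape for each replicate number, lines are means and bars are SD (n = 3). The WT and KO points are apart for every gene except *Fos* and *Dusp1*, and *Junb* is the gene with the widest downward gap.

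*Fosb* (chr7:19302696-19310051, minus strand, mm10), a FOS family member that is nearly silent in resting tissue, was at 2.48, 2.35 and 2.61 CPM in the WT samples and at 4.72, 7.65 and 8.35 CPM in the KO samples. Every KO sample was above every WT sample, while KO replicate 1 lay well below the other two. The mean went from 2.48 ± 0.129 to 6.90 ± 1.93 CPM (SD, n = 3), a log2 fold change of 1.48 (SE 0.19) with an adjusted p of 0.000188 by edgeR's quasi-likelihood test. This was the largest rise among the 10.

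*Fos* (chr12:85473890-85477273, plus strand), the founding member of the family, was at 18.4, 20.5 and 20.3 CPM in WT and at 20.3, 30.8 and 29.6 CPM in KO. KO replicate 1 sat at the level of the WT samples, and the other two KO samples stood above them. The log2 fold change was 0.45 (SE 0.14, edgeR adjusted p = 0.0235), which is under the fold needed for a DEG. The call at the adjusted p was lost without KO replicate 2 (0.1), KO replicate 3 (0.0976), WT replicate 1 (0.0711) or WT replicate 3 (0.0527). Without KO replicate 1 the log2 fold change was 0.62, and *Fos* was then a DEG at an edgeR adjusted p of 7.97e-05.

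*Jun* (chr4:95049034-95052222, minus strand), the main DNA-binding partner of FOS proteins, was the most abundant of the 10 per length and varied least between replicates. It was at 89.9, 83.5 and 84.5 CPM in WT and at 95.7, 100.3 and 99.4 CPM in KO. The groups stood apart by a narrow margin. Its rise was small, with a log2 fold change of 0.20 (SE 0.04, edgeR adjusted p = 0.0039). The antisense gene *Junos* covers 689 of its bases with between 106 and 172 counts and a log2 fold change of 0.32. *Jun* itself held 6902 to 9665 counts. The use of strand in the counting is not stated, so reads from the shared bases cannot be assigned to either gene.

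*Junb* (chr8:84974484-84978718, minus strand), a JUN protein that often opposes *Jun* at target genes and that helps to maintain muscle mass, moved the other way. It was at 20.9, 28.9 and 23.8 CPM in WT and at 8.58, 9.94 and 10.1 CPM in KO. All 3 KO samples lay below the lowest WT sample, and WT replicate 2 was the highest. The mean went from 24.5 ± 4.07 to 9.53 ± 0.830 CPM (SD, n = 3), a log2 fold change of -1.36 (SE 0.12, edgeR adjusted p = 1.31e-05). Without WT replicate 2 it was -1.23, the nearest to 0 of the values with 1 sample left out. *Junb* overlaps *Prdx2* on the opposite strand over 351 bases, and *Prdx2* held between 13289 and 21459 counts per sample with a log2 fold change of -0.56. *Junb* itself held between 804 and 2517 counts. Whether the counting used strand is not stated, so reads from the shared bases cannot be assigned to either gene.

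*Atf3* (chr1:191170296-191218039, minus strand), a factor induced by many forms of cell stress, was at 7.56, 6.11 and 6.86 CPM in WT and at 11.1, 10.6 and 10.01 CPM in KO. The groups were clearly apart, and the KO samples lay close together. The log2 fold change was 0.63 (SE 0.09, edgeR adjusted p = 0.000295). It is just over the DEG threshold of 0.58, and *Atf3* was under that fold when only library size was used for scaling (0.56) and when WT replicate 2 was left out (0.55).

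*Egr1*, a target of serum response factor and of the ERK pathway, was at 56.7, 54.3 and 56.9 CPM in WT and at 73.0, 81.6 and 83.4 CPM in KO. The WT samples were almost equal, and every KO sample was higher. The log2 fold change was 0.50 (SE 0.05, edgeR adjusted p = 5.27e-05), so that *Egr1* rose without reaching the fold of a DEG.

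*Nr4a1* (chr15:101254269-101274795, plus strand), a receptor linked to glucose use and growth of muscle, also rose. It was at 22.3, 22.7 and 23.3 CPM in WT and at 33.96, 38.1 and 39.6 CPM in KO. The lowest KO sample was far above the highest WT sample. The mean went from 22.7 ± 0.486 to 37.2 ± 2.91 CPM (SD, n = 3), with a log2 fold change of 0.71 (SE 0.06, edgeR adjusted p = 1.23e-05).

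Neither brake was a DEG. *Dusp1* (chr17:26505590-26562128, minus strand) was at 30.8, 35.0 and 33.2 CPM in WT and at 33.1, 40.1 and 38.5 CPM in KO. KO replicate 1 lay inside the WT range. Its log2 fold change was 0.18 with a 95% interval from 0.0079 to 0.34, and an edgeR adjusted p of 0.0835. It passed the adjusted p with upper-quartile scaling (0.0165), without WT replicate 2 (0.0496) and without KO replicate 1 (0.00726). *Dusp1* shares 640 bases with *Ergic1* on the opposite strand, which held between 14981 and 19114 counts and had a log2 fold change of 0.09. *Dusp1* itself held 2891 to 3826 counts. Of the other genes overlapping it, *Gm8225* held the most, between 8 and 19 counts. The use of strand is not stated, so reads from the shared bases cannot be assigned to any of these genes.

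*Zfp36* (chr7:28376784-28380253, minus strand) was at 26.0, 30.1 and 27.8 CPM in WT and at 21.3, 23.7 and 23.04 CPM in KO. The highest KO sample was below the lowest WT sample. The log2 fold change was -0.30 (SE 0.07, edgeR adjusted p = 0.0047). An antisense gene, *Gm44710*, covers 1274 of its bases with between 158 and 316 counts and a log2 fold change of 0.58, opposite in direction. *Zfp36* itself held 1992 to 2932 counts. As for *Junb*, reads from the shared bases cannot be assigned to either gene.

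*Ier2* (chr8:84661331-84662852, minus strand), a short nuclear protein of the early response, was at 21.9, 25.0 and 22.5 CPM in WT and at 17.7, 18.1 and 17.3 CPM in KO. The KO samples were within a narrow range under all WT samples. The log2 fold change was -0.39 (SE 0.06, edgeR adjusted p = 0.000748).

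**Figure D2:**
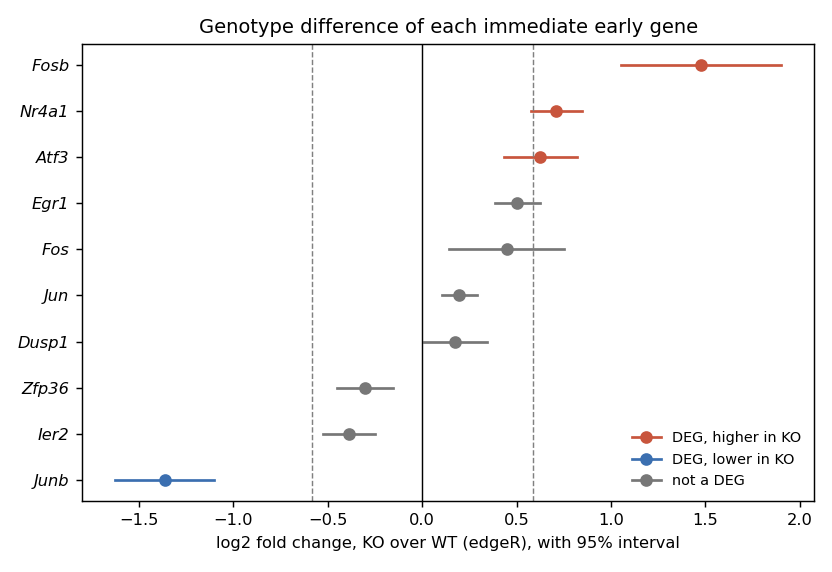
Log2 fold change of KO over WT for each of the 10 genes, with its 95% interval from the edgeR fit. Dashed lines mark a fold change of 1.5 in either direction, and colour marks DEGs. *Fosb* is the farthest to the right at 1.48 and *Junb* the farthest to the left at -1.36, while the intervals of *Fos*, *Egr1*, *Atf3* and *Nr4a1* span the right dashed line.

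The 4 DEGs moved in opposite directions, and their promoters are shown because each holds the same short element within 120 bases of the start site. Each sequence is the 120 bases before the start of the RefSeq transcript on GRCm38.p6, written 5′ to 3′ on the strand of the gene. Capitals mark TGACG, or CGTCA where it lies on the other strand, which is the half-site of the cyclic AMP response element bound by CREB, ATF and some AP-1 dimers. *Fosb* is on the minus strand at chr7:19310046-19310165, *Nr4a1* on the plus strand at chr15:101266726-101266845, *Atf3* on the minus strand at chr1:191183334-191183453 and *Junb* on the minus strand at chr8:84978749-84978868.
Fosb: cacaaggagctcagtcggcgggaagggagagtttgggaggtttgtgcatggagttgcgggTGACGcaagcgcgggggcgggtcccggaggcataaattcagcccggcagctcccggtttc
Nr4a1: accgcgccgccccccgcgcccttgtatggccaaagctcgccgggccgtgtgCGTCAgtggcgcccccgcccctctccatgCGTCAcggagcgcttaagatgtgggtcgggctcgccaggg
Atf3: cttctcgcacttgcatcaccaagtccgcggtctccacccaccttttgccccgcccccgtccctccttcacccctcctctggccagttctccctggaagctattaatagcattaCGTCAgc
Junb: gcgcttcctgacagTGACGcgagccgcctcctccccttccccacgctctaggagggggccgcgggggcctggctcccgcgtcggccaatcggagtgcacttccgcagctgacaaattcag

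The half-site began 60 bases before the start in *Fosb* and 106 bases before it in *Junb*. On the other strand it began 7 bases before the start in *Atf3* and, within the bases printed, 69 and 40 bases before it in *Nr4a1*. *Nr4a1* held 2 more copies farther out, 233 and 213 bases before the start. Over the 250 bases before the start, searched on both strands for 8 of the genes (all but *Egr1* and *Ier2*), 6 held TGACG, beside 17.8% of 32851 RefSeq promoters. *Fos* and *Dusp1* were the other 2. The promoters printed were picked for holding the half-site, and the RefSeq promoters were not matched to these genes. Enrichment was therefore not tested. The full palindrome TGACGTCA was found in *Dusp1* alone and in 1.55% of promoters, and each full element also contains the half-site. The EGR site GCGGGGGCG was found in *Fosb*, *Nr4a1* and *Zfp36*, and in 2.57% of promoters. The AP-1 site TGANTCA was in 0 of the 8 and in 6.75% of promoters. Among the 8, the serum response element was in *Zfp36* alone, and it was in 1.47% of promoters. Copies of any element beyond the 250 bases, or differing from its exact pattern, were not sought. The half-site was thus present in genes that rose, in *Junb*, which fell, and in *Dusp1*, which did not pass the test.

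The order of the genes by level per length also differed between the genotypes. The lengths join the exons of all annotated transcripts of a gene, and for *Zfp36* they cover its whole span of 3470 bases. The levels per length, the ranks and the family shares that follow depend on these lengths. In RPKM, which is CPM per kilobase of exon, WT went from *Jun* (27.0 ± 1.07, SD, n = 3) through *Ier2* (15.2), *Egr1* (12.5), *Junb* (10.7), *Dusp1* (9.97), *Fos* (8.39), *Zfp36* (8.06), *Nr4a1* (6.48) and *Atf3* (3.18) to *Fosb* (0.397 ± 0.0206). The ranges of *Egr1* and *Junb*, of *Junb* and *Dusp1*, and of *Fos* and *Zfp36* overlapped. In KO the order was *Jun* (30.9 ± 0.767), *Egr1* (17.7), *Ier2* (11.6), *Fos* (11.4), *Dusp1* (11.3), *Nr4a1* (10.6), *Zfp36* (6.53), *Atf3* (4.91), *Junb* (4.14) and *Fosb* (1.11 ± 0.309), and neighbours from *Ier2* to *Nr4a1* overlapped. *Junb* stood in place 4 of 10 in WT and in place 9 in KO, the widest move of any of them.

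The share of the summed RPKM of a family was computed for 8 of the 10 genes, all but *Atf3* and *Dusp1*. The IER genes were grouped by name alone. *Junb* made up 15.2% ± 1.86 of the JUN family in WT and 5.97% ± 0.303 in KO (SD, n = 3), while *Jun* went from 38.7% to 44.6% and *Jund* from 46.1% to 49.4%. The summed JUN level was 69.9 ± 3.28 RPKM in WT and 69.3 ± 3.61 RPKM in KO, a difference smaller than the spread between samples. In the FOS family, *Fos* went from 47.6% ± 1.43 to 58.6% ± 5.31 and *Fosb* from 2.26% ± 0.235 to 5.63% ± 0.949, against a smaller share of *Fosl2* (49.8% to 35.5%). *Egr1* went from 56.7% ± 4.35 to 75.4% ± 0.115 of the EGR family as *Egr3* went from 36.3% to 16.9%. *Nr4a1* went from 58.3% ± 0.594 to 71.6% ± 0.813 of the NR4A family as *Nr4a2* went from 38.8% to 25.6%. Each share of *Jun*, *Junb*, *Fos*, *Fosb*, *Egr1* and *Nr4a1* was apart between the genotypes in all samples. Shares within a family depend on each other, since a higher share of 1 gene lowers the rest. No background of other families was computed. A comparison of 3 with 3 by exact permutation cannot give a two-sided p below 0.1, and none is given. *Zfp36* was a minor member beside *Zfp36l1* and *Zfp36l2*, with 7.39% ± 0.292 in WT and 6.85% ± 0.344 in KO, and *Ier2* held 38.6% ± 0.495 and 37.7% ± 1.75 of the summed IER level. The shares of *Zfp36* and *Ier2* overlapped between the genotypes.

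**Figure D3:**
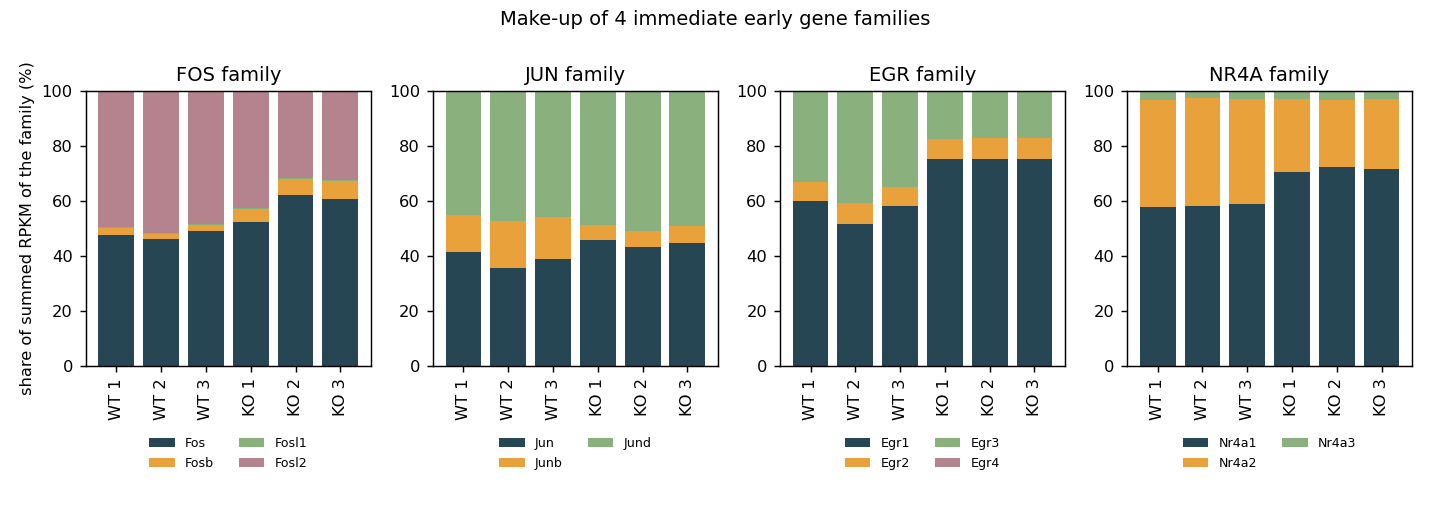
Share of each gene in the summed RPKM of 4 families, in percent, with a stacked bar for each sample. *Junb* takes 15.2% of the JUN family in WT and 5.97% in KO on average, and *Egr1* and *Nr4a1* take larger shares of their families in all 3 KO samples. *Fosl1* and *Egr4* were too low to be visible.

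Other genes of these families, with the IER genes grouped by name, moved in part against the 10. *Egr3*, which controls muscle spindle formation, was at 30.7, 42.1 and 33.5 CPM in WT and at 16.3, 17.9 and 18.3 CPM in KO, opposite in direction to *Egr1*. Its log2 fold change was -1.02 (SE 0.11, edgeR adjusted p = 5.03e-05), and it was a DEG. *Egr2* did not pass, with a log2 fold change of 0.20 (edgeR adjusted p = 0.106). *Fosl2*, a FOS family gene, fell by 0.38 on the log2 scale (edgeR adjusted p = 0.000955). *Jund* did not pass, with a log2 fold change of 0.09 (edgeR adjusted p = 0.301). Of the other NR4A receptors, *Nr4a2* fell by 0.19 on the log2 scale (edgeR adjusted p = 0.02) and *Nr4a3* rose by 0.37 (edgeR adjusted p = 0.042), neither a DEG. *Ier5* fell by 0.56 and *Zfp36l1* by 0.23, whereas *Ier3*, *Ier5l* and *Zfp36l2* did not pass, with log2 fold changes of -0.18, -0.16 and -0.02.

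A wider list of 66 rapidly induced genes outside the 10, arranged by family, gave 63 that could be tested. Among them 6 were DEGs higher in KO and 7 were DEGs lower, 20.6% in all beside the 16.7% of all genes, and their median log2 fold change was 0.07. At the adjusted p alone, 20 rose, 19 fell and 24 did not pass, so that 61.9% passed, beside 45% of all genes tested. The wider list was thus split about evenly in direction.

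The 6 that were higher were *Npas4*, an activity-dependent factor (log2 fold change 1.15, SE 0.10), *Ccn2* (0.83) and *Ccn1* (0.62), matrix-associated proteins and targets of YAP, *Cebpd* (0.80), *Dusp8* (0.66), a phosphatase of stress-activated kinases, and *Batf* (0.64), an AP-1 factor of leukocytes. *Npas4* was at 1.79, 1.54 and 1.89 CPM in WT and at 3.81, 3.79 and 3.99 CPM in KO. *Ccn2* was at 30.8, 27.9 and 30.3 CPM in WT and at 42.1, 58.9 and 57.5 CPM in KO, with KO replicate 1 lowest of the KO samples. *Cebpd* was at 11.1, 11.5 and 10.9 CPM in WT and at 18.3, 19.8 and 20.3 CPM in KO. The WT and KO values of these 3 genes did not overlap, which was also so for 55.9% of all genes tested. *Batf* was below the DEG fold (a log2 value of 0.585) with library size alone (0.576) and without KO replicate 1 (0.54), and so was *Ccn1* with library size alone (0.55) and without KO replicate 2 (0.57) or KO replicate 3 (0.57).

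Of the 7 that were lower, *Areg*, an EGF receptor ligand, had the largest difference but very low values, at 0.412, 0.569 and 0.483 CPM in WT and at 0.128, 0.178 and 0.103 CPM in KO (log2 fold change -1.82, SE 0.26). *Plk3*, a stress kinase, was at 29.4, 37.3 and 32.5 CPM in WT and at 12.4, 10.3 and 11.3 CPM in KO (-1.54, SE 0.10). *Klf4*, a zinc finger factor of barrier epithelia, was at 140, 183 and 150 CPM in WT and at 66.0, 71.5 and 73.3 CPM in KO (-1.17, SE 0.09). The others were *Egr3*, *Dusp5* (-0.96), a nuclear phosphatase of ERK, *Pim1* (-0.93), a survival kinase, and *Cebpb* (-0.85). *Cebpb* was at 10.5, 17.2 and 11.3 CPM in WT and at 6.31, 7.78 and 7.42 CPM in KO. Its WT replicate 2 stood well above the other samples, as did that of *Klf4*.

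**Figure D4:**
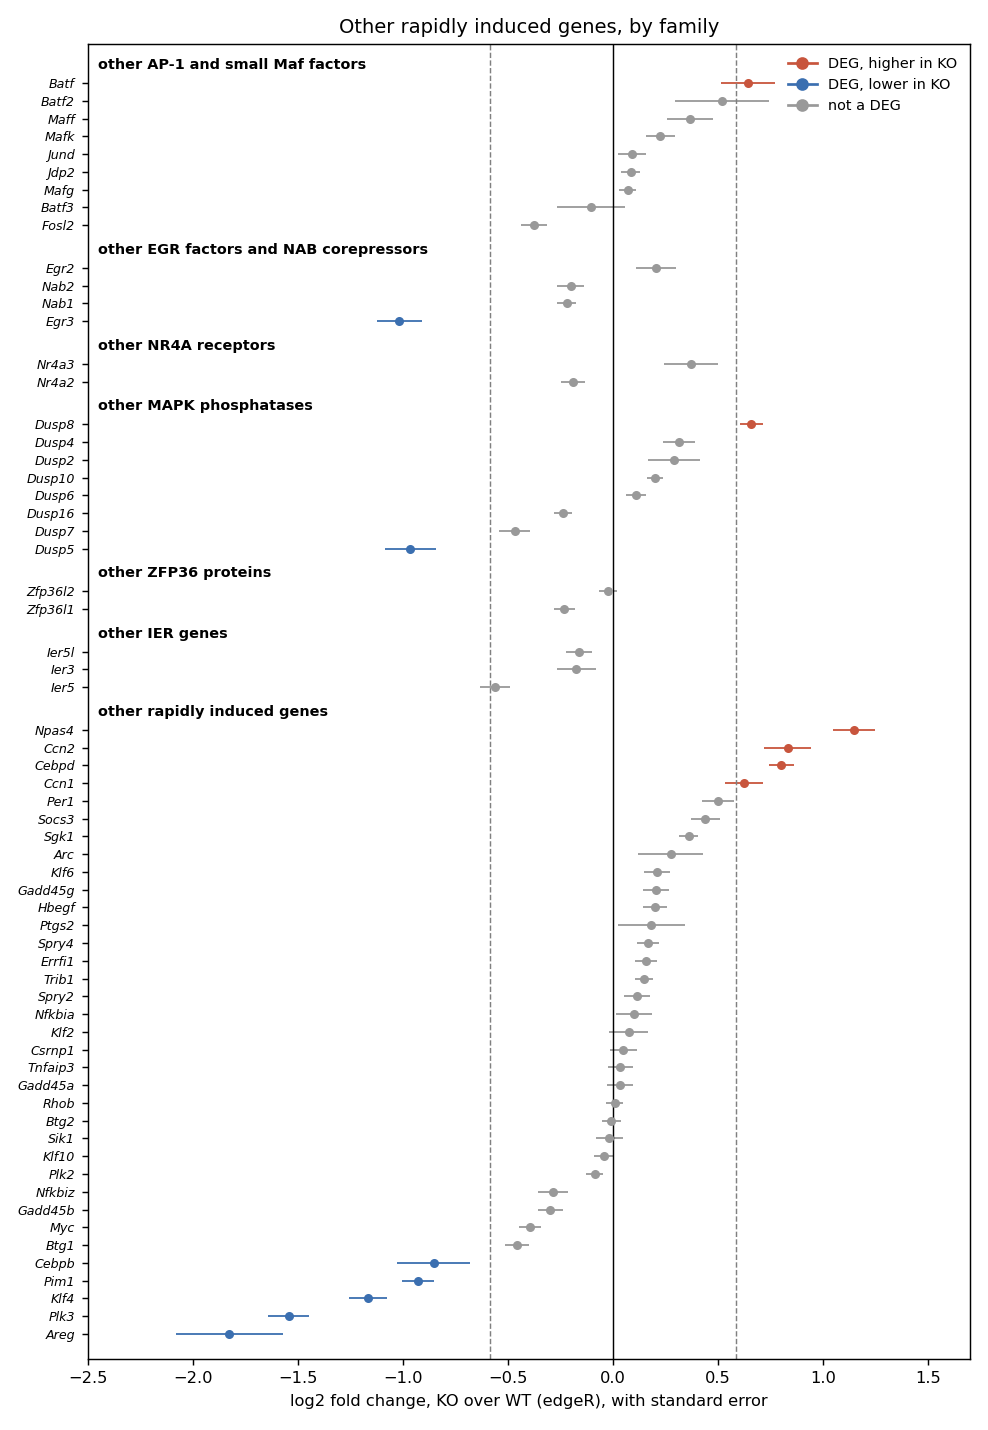
Log2 fold change of KO over WT for the 63 tested genes of the wider list, grouped by family, with the standard error from the edgeR fit. Dashed lines mark a fold change of 1.5, and colour marks the 6 DEGs higher and 7 DEGs lower in KO, which lie on both sides of 0.

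Among the WT replicates, the order differed between the genes that fell and most of the genes that rose, and this was not tested. In WT, replicate 2 was highest and replicate 1 lowest for 3 of the 3 genes that fell (*Junb*, *Ier2*, *Zfp36*), for 1 of the 6 that rose, and for 7 of the 7 DEGs lower in KO of the wider list. *Dusp1*, which did not pass the adjusted p, had this order too. The same order held for 9 of the 10 keratinocyte markers, which summed to 15388, 22949 and 17221 CPM in WT replicates 1, 2 and 3, for 0 of the 4 erythroid markers and for 0 of the 6 muscle fibre markers. The fibroblast sum (28236, 31224 and 30091 CPM) and the myogenic progenitor sum (229, 248 and 244 CPM) in WT also had this order. No marker sum of the other cell types did. The order was seen in 25.5% of all genes tested, in 57% of all DEGs lower in KO and in 11.9% of all DEGs higher in KO. The part of the keratinocyte RNA, or of any other cell type, in the lower values of *Junb*, *Ier2*, *Zfp36*, *Egr3*, *Klf4* and the other genes that fell was not tested.

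In KO, replicate 1 was lowest for 5 of the 6 genes that rose, all but *Atf3*, and for 2 of the 3 that fell. The muscle fibre markers were also lowest in KO replicate 1, in 6 of 6 genes, with sums of 23374, 30008 and 29377 CPM in KO replicates 1, 2 and 3. So were 3 of the 4 erythroid markers, 4 of the 10 keratinocyte markers, 3 of the 6 DEGs higher in KO of the wider list and 4 of its 7 DEGs lower in KO. Sums lowest in KO replicate 1 were also those of adipocyte (313, 359 and 348 CPM) and Schwann cell markers (95.9, 116 and 115 CPM). The same held for smooth muscle (464, 492 and 496 CPM), endothelial (700, 715 and 736 CPM) and cartilage and bone markers (1069, 1127 and 1115 CPM). It did not hold for macrophage, mast cell, fibroblast or myogenic progenitor markers. KO replicate 1 was lowest in 38.4% of all genes tested, in 60.4% of all DEGs higher in KO and in 35.7% of all DEGs lower in KO. The part of the muscle fibre RNA, or of any other cell type, in the higher values of *Fosb*, *Fos*, *Egr1* and *Nr4a1* was not tested. The biological coefficient of variation, which is the spread between replicates beyond counting noise, ran from 4.44% for *Jun* to 16.1% for *Fosb*, with 12.2% for *Fos* and 10.6% for *Junb*. Its median over the 10 was 6.80%, beside 7.79% over all genes tested.

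**Figure D5:**
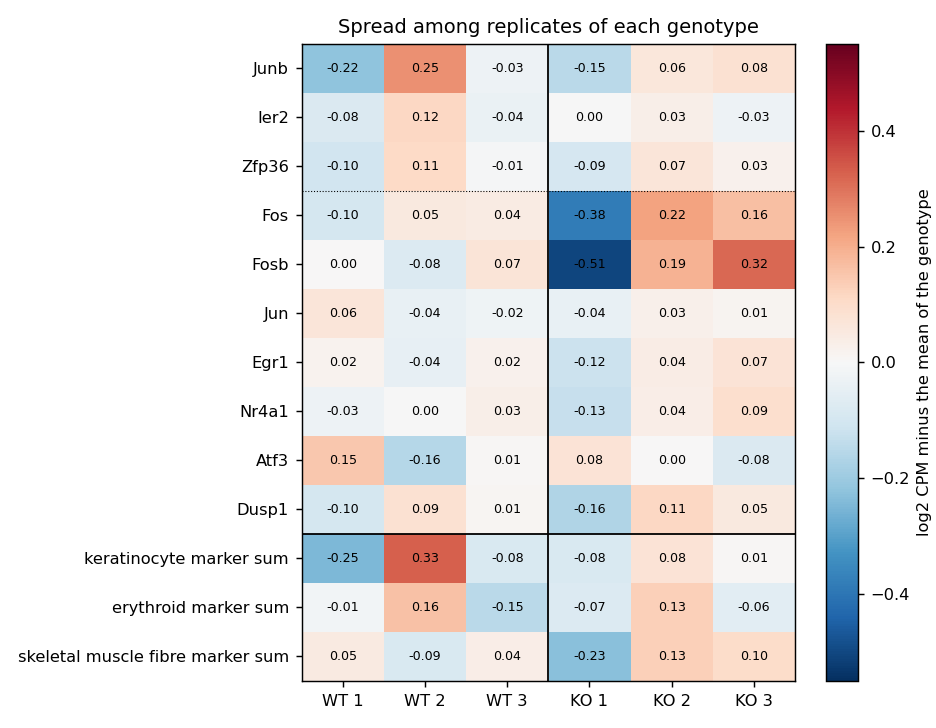
Deviation of each sample from the mean of its genotype, in log2 CPM, for the 10 genes and for the summed markers of 3 cell types. In the WT columns *Junb* (-0.22, 0.25 and -0.03) has the signs of both the keratinocyte sum (-0.25, 0.33 and -0.08) and the erythroid sum (-0.01, 0.16 and -0.15). In the KO columns *Fos* and *Fosb* are lowest in replicate 1, as are all 3 marker sums.

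Genes on the way to the early response were compared as lists. Of 26 kinases and factors upstream of it, from RAF kinases to SRF, CREB1 and their cofactors, 0 were DEGs, beside 16.7% of all genes. At edgeR's adjusted p alone, 11 rose and 6 fell, with log2 fold changes from -0.25 (*Map2k2*) to 0.32 (*Rps6ka5*). That is 65.4% of the list, beside 45% of all genes tested. *Srf* rose by 0.16 (edgeR adjusted p = 0.02), its cofactor *Mrtfa* rose by 0.20 (0.00666) and *Creb1* fell by 0.20 (0.0114). Of 9 target genes of AP-1, *Cd44* (log2 fold change 0.30) and the protease gene *Plau* (0.29) rose, *Mmp13* fell by 0.27, and *Il6* was a DEG higher in KO at 0.71. The other 5 did not pass the adjusted p, and the 1 DEG among 9 is 11.1%, beside 16.7% of all genes. *Il6* was barely expressed, at 0.254, 0.242 and 0.180 CPM in WT and at 0.384, 0.388 and 0.329 CPM in KO, and its adjusted p was 0.0235 with edgeR and 0.135 with DESeq2. It also missed the threshold without WT replicate 3 (0.0992), KO replicate 1 (0.0563) or KO replicate 2 (0.074).

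A pair of stress-linked lists set beside the immediate early genes went in opposite directions. All 7 heat shock genes fell at edgeR's adjusted p, and the inducible chaperones *Hspa1b* and *Hspa1a* were DEGs. Of all genes tested, 23.1% fell at that threshold and 8.39% were DEGs lower in KO, and the median log2 fold change of the 7 was -0.37. *Hspa1b* was at 34.5, 47.8 and 32.8 CPM in WT and at 2.84, 3.34 and 3.08 CPM in KO, so its log2 fold change was -3.63 (SE 0.15). *Hspa1a* had a log2 fold change of -2.41 (SE 0.13), and since both genes are near-identical copies, reads may have been split between them. The other 5 lay between -0.51 (*Dnajb1*) and -0.25 (*Hspa8*). Of 6 genes responsive to glucocorticoids, 5 rose and *Mt1* did not pass, with a median log2 fold change of 0.40. Of all genes tested, 21.9% rose and 8.31% were DEGs higher in KO. *Zbtb16* was a DEG, at 12.8, 14.0 and 13.6 CPM in WT and at 33.99, 34.9 and 38.9 CPM in KO (log2 fold change 1.42, SE 0.06), and so was *Klf9*, with a log2 fold change of 1.33 (SE 0.06). *Tsc22d3*, encoding the leucine zipper protein GILZ, rose by 0.45.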

How the data were processed

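RNA-seq counts of fetal leg muscle at E18.5d were used, with 3 WT and 3 KO samples grouped by their labels. The authors deposited raw counts per gene, as whole numbers without normalization. According to the submitters' processing notes and the methods, the 150 bp paired reads were trimmed with Trim Galore 0.6.6, mapped to mm10 with HISAT2 2.2.1 and counted with featureCounts 2.0.1. The annotation, the use of strand and the counting of reads or pairs are not given in the sources used here. The counts of the per-sample files equalled those of the series table.

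Of 56262 gene IDs, 55227 were matched without version to GENCODE M21, which is on the same assembly. The versions of 2 of the 10 genes (*Junb*, *Ier2*) were newer in the files. Lengths for RPKM are the summed exons of M21, and promoters are from RefSeq on GRCm38.p6.

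Counts were tested in R 4.3.3 with edgeR 4.0.16 (filterByExpr, TMM, glmQLFit, glmQLFTest) on genotype alone, with Benjamini-Hochberg adjustment over 22071 genes. CPM uses TMM-scaled library sizes, with factors from 0.963 to 1.03. The deviations of log2 CPM used a prior count of 2. Samples of one genotype differed by more than counting noise, by a mean chi-square of 5.20 to 35.5 per gene. The procedure was tested on simulated data with 22071 genes, in which edgeR, at the adjusted p alone, recovered 30 of 33 genes of at least 1 CPM changed by 1.5 times and 37 of 37 changed by 2 times. It also called 14 unchanged genes. Only 50 genes were changed at each fold, so scaling under changes as widespread as those in the data was not tested.

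The members and lists were chosen with earlier results of these data known. Named genes are the 10 members, the called genes of the other lists (at most 6 per list and direction), the relatives of the members that were not called, and the 5 genes most alike in pattern. Genes named in addition to these (*Synpo2*, the genes overlapping members, marker genes and pathway genes below the DEG fold) were added after their values were seen. The alternatives were other scaling factors, DESeq2 1.42.0, limma-voom with limma 3.58.1, other filters, other thresholds, a replicate block and fits without each sample. The labels name no batch.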

Additional observations from a re-analysis of the deposited data

How the results depend on the processing

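None of the genes recomputed, and no median of the 10 or of the wider list, changed direction under the alternatives. The median log2 fold change over all genes tested, -0.0041 with TMM, was 0.0637 with upper-quartile scaling, -0.0728 with library size alone and 0.0055 without KO replicate 3. The counts moved by more than 1.5 times only with other thresholds. At the adjusted p alone there were 4838 genes higher and 5098 lower, 6 and 3 of the 10 immediate early genes, 20 and 19 of the wider list, and 19 and 14 of the pathway lists. With a fold over 2 there were 774 genes higher, 1 immediate early gene higher (*Fosb*), and 1 gene higher and 4 lower of the wider list. Of the 10, the calls of *Fos*, *Atf3* and *Dusp1* depended on single samples or on the scaling, as given with them. Without KO replicate 1, 4 of the 10 were DEGs higher in KO, and without WT replicate 2 or with library size alone 2 were, with 1 lower each time.

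Same-numbered WT and KO samples did not deviate together (correlations of -0.20, -0.13 and 0.05), so the numbers were not taken to pair the samples. With the replicate block, 1744 genes were higher and 1777 lower, with 3 and 1 of the 10 called, and *Dusp1* passed the adjusted p (log2 fold change 0.17, adjusted p = 0.0229). The precision was limited by 3 samples a genotype: the 95% interval of the log2 fold change of *Fos* ran from 0.14 to 0.75.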

Other observations

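The genes most like the mean pattern of the 10 were sought among 12362 other genes with a mean of at least 5 CPM. This was done by correlation with the mean log2 CPM of the 10 over the 6 samples. That mean joins genes that rose and genes that fell, so it need not follow any single member. The 5 highest were *Ybx1* (r = 0.999, log2 fold change 0.08), *Spry1* (0.995), *Ddit4l* (0.993), *Arl2bp* (0.993) and *Gm13340* (0.991). With each genotype centred on its own mean, they were *Acadvl* (0.999), *Prkaca* (0.999), *Loxl2* (0.998), *Ybx1* (0.997) and *Fam189a2* (0.996). With 6 samples and so many genes, high values arise readily, and more so after centring, which leaves fewer free values. The samples also share depth and tissue makeup, so these are descriptions without a test.

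Other cell types also differed between the genotypes in their summed markers. The 4 adipocyte genes summed to between 105 and 134 CPM in WT and between 313 and 359 CPM in KO, and all 4 were DEGs. The 6 macrophage genes summed to between 177 and 192 CPM in WT and between 302 and 331 CPM in KO, with 3 DEGs, and the 4 mast cell genes to between 899 and 1002 CPM and between 1280 and 1573 CPM, with 2 DEGs. The sums of 5 endothelial genes (601 to 634 CPM and 700 to 736 CPM) and of 5 fibroblast genes (28236 to 31224 CPM and 34380 to 35516 CPM) were also higher in every KO sample, with 0 DEGs among them. The 4 smooth muscle genes summed to between 353 and 371 CPM in WT and between 464 and 496 CPM in KO. The 4 Schwann cell genes summed to between 68.2 and 72.1 CPM in WT and between 95.9 and 116 CPM in KO, each with 1 DEG higher. The 4 myogenic progenitor genes went from between 229 and 248 CPM to between 207 and 212 CPM, and the 5 cartilage and bone genes from between 1170 and 1259 CPM to between 1069 and 1127 CPM. Of the latter, *Col2a1* was a DEG lower in KO (278 to 141 CPM) and *Bglap* a DEG higher (2.42 to 3.74 CPM), and *Acan* also rose, with a log2 fold change of 0.41. The part of any of these cell types in the values of the immediate early genes was not tested.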
